A study of Mus musculus with 4 samples.

Results

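The cell cycle cyclins examined here are 9 genes of the deposited counts table, chosen by symbol: the G1 cyclins Ccnd1, Ccnd2 and Ccnd3, the G1/S cyclins Ccne1 and Ccne2, and the cyclins of S phase to mitosis Ccna2, Ccnb1, Ccnb2 and Ccnf. All 9 were found among 56350 annotated genes, each in 1 row, and all 9 passed the filter on low counts that left 14455 genes for testing. RNA came from EO771 cells, a mouse mammary carcinoma line of strain C57BL/6 grown with serum. The 2 libraries labelled BML-210 are from cells given BML-210, an inhibitor of histone deacetylases, at 1.0 µM for 48 h, and the 2 libraries labelled untreated are from cells described elsewhere in the labels as given vehicle. Gene counts summed to 13167893 and 13961743 in the BML-210 libraries and to 16534667 and 13855061 in the untreated libraries. The labels do not say whether the 2 libraries of a group came from separate cultures, so p-values measure only the spread between these samples, which may be technical. The library codes hold D for untreated and V for BML-210, letters the labels do not explain. D could stand for DMSO or for drug and V for vehicle. Each direction below rests on the treatment labels, and if the groups had been exchanged each would turn.

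Cyclins are the regulatory subunits that switch on the cyclin-dependent kinases (CDKs), and many of them are made and destroyed again in each division. D-type cyclins respond to growth signals and activate CDK4 and CDK6, which phosphorylate the retinoblastoma protein and release E2F factors. E-type cyclins with CDK2 start DNA replication, cyclin A2 serves S phase and the entry into mitosis, and B-type cyclins with CDK1 drive mitosis. Cyclin F is an F-box protein: it guides a ubiquitin ligase and does not activate a CDK. The transcripts of the A, B and F cyclins normally peak late in the cycle, so a bulk sample cannot tell a larger share of cells in those phases from more RNA per cell.

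The mRNAs of the S phase and mitotic cyclins Ccna2, Ccnb1 and Ccnb2 and of the G1/S cyclin Ccne2 were higher in cells given BML-210, by 1.51-fold to 2.17-fold. Of the D-type cyclins, Ccnd1 rose slightly, by 1.15-fold, and the abundant Ccnd2 and the less abundant Ccnd3 did not pass the test. Ccne1 and Ccnf did not pass either, so in G1/S and in S phase to mitosis the members of a phase differed in their change. In all, 5 of the 9 cyclins were higher and 0 lower at an adjusted p below 0.05 in edgeR's quasi-likelihood test, where 22.9% of all tested genes were higher, 23.5% were lower and 46.4% passed in either direction. In both BML-210 libraries 6 of the 9 lay above both untreated libraries, which was so for 35.2% of tested genes, and 0 of the 9 lay below, against 36.1% (71.3% of tested genes were separated in either direction). The median log2 fold change, BML-210 over untreated throughout, was 0.20 over the 9 cyclins and -0.0025 over all tested genes.

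**Figure D1:**
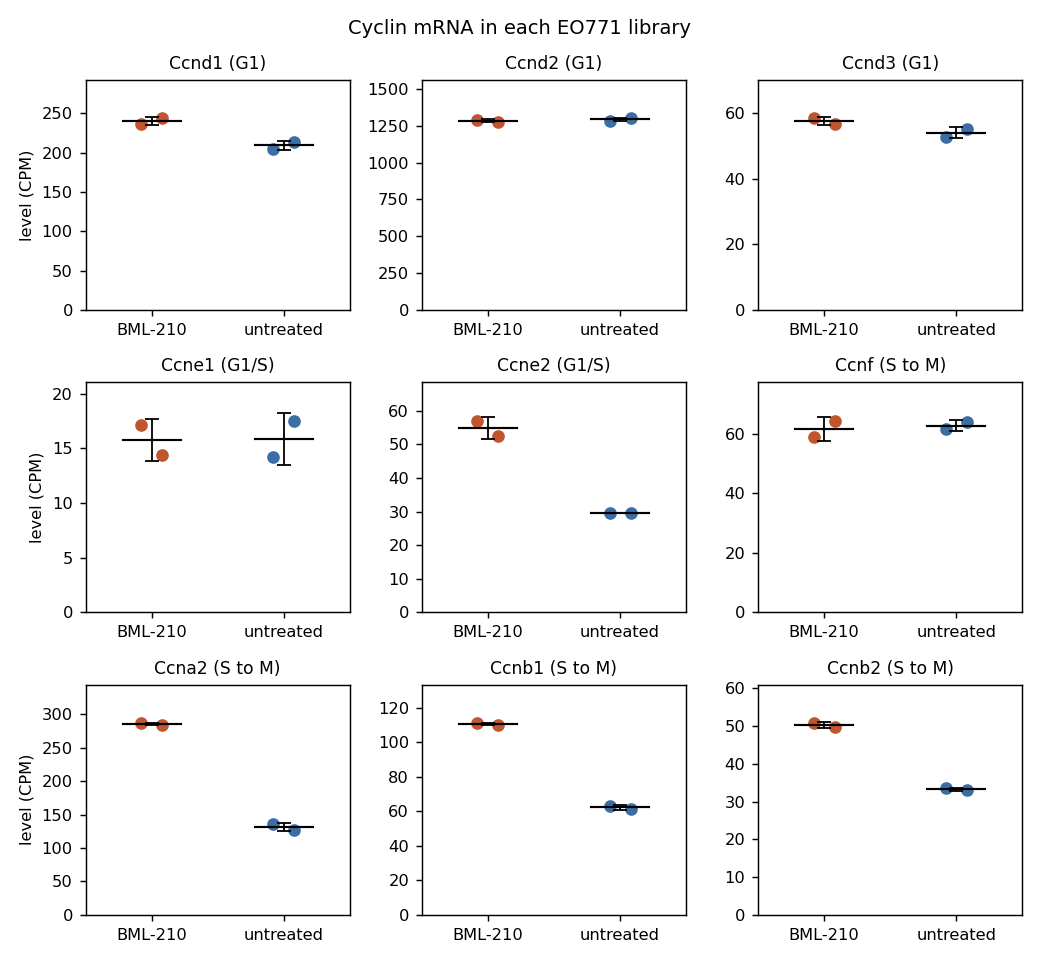
Level of each cyclin (vertical axis, CPM, counts scaled to library size, from 0) in the BML-210 and the untreated libraries. Points are libraries, the long bars are means and the capped bars are SD over 2 libraries. The groups stand well apart for Ccna2, Ccnb1, Ccnb2 and Ccne2, lie close together for Ccnd1 and Ccnd3, and overlap for Ccnd2, Ccne1 and Ccnf.

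Cyclin A2 changed most. Ccna2 (ENSMUSG00000027715.9, chromosome 3, 36564865 to 36572150, mm10) had 3791 and 3986 reads in the BML-210 libraries and 2237 and 1749 in the untreated libraries. Scaled to library size, that was 287 and 284 CPM with BML-210, against 136 and 127 CPM untreated. Each BML-210 library lay at least 148 CPM above each untreated library, a gap far wider than the differences within groups. On the log2 scale the change was 1.11 ± 0.04 (SE; adjusted p = 1.03e-32, edgeR), in size above that of 94.2% of tested genes. Of its exon bases 12.5% also lie in exons of Exosc9, an exosome gene on the opposite strand, whose own log2 fold change was 0.00 (edgeR adjusted p = 0.97).

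The B-type cyclins, which activate CDK1 at the entry into mitosis, rose together. Ccnb1 (ENSMUSG00000041431.16, chromosome 13, 100778650 to 100786570) had 111 and 110.25 CPM with BML-210, against 63.4 and 61.3 CPM untreated. It rose by 0.83 ± 0.05 on the log2 scale (SE; adjusted p = 7.20e-21, edgeR), and the groups did not overlap. Ccnb2 (ENSMUSG00000032218.7, chromosome 9, 70407692 to 70421547) had 50.8 and 49.7 CPM with BML-210, against 33.5 and 33.0 CPM untreated, again without overlap. It rose by 0.60 ± 0.07 on the log2 scale (SE; adjusted p = 1.36e-10, edgeR). No exon of either gene overlaps an exon of another gene in the counts table. Reads could in principle be shared with the pseudogenes Ccnb1-ps and Ccnb2-ps, which had at most 13 and 6 reads in a library.

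Cyclin F went its own way among the late cyclins. Ccnf (ENSMUSG00000072082.7, chromosome 17, 24222198 to 24251484) had 58.8 and 64.4 CPM with BML-210, against 61.5 and 64.0 CPM untreated, so the groups overlapped. The estimated change was -0.02 ± 0.06 on the log2 scale (SE; adjusted p = 0.783, edgeR), with a 95% interval of -0.14 to 0.10. That interval holds no rise of the size of Ccnb2. The log2 fold change of Ccna2 was 1.14 above that of Ccnf (95% interval 1.00 to 1.28), that of Ccnb1 was 0.85 above it (0.70 to 1.00) and that of Ccnb2 0.62 above it (0.44 to 0.80). Among the other 3 late cyclins, Ccna2 rose more than Ccnb1 by 0.29 (0.16 to 0.41) and Ccnb1 more than Ccnb2 by 0.23 (0.06 to 0.40). These are among 10 differences computed, 1 for each pair of cyclins of a phase, and their intervals take the errors of both genes as independent.

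The E-type cyclins, both partners of CDK2, also differed from each other. Ccne2 (ENSMUSG00000028212.16, chromosome 4, 11191351 to 11204779) had 754 and 735 reads with BML-210, against 486 and 406 reads untreated. Scaled to library size, these were 57.1 and 52.4 CPM with BML-210, against 29.6 and 29.6 CPM untreated. Both BML-210 libraries were well above the untreated ones, a rise of 0.89 ± 0.07 on the log2 scale (SE; adjusted p = 3.03e-16, edgeR). Exons of Ints8, an Integrator gene on the opposite strand, cover 17.4% of its exon bases, and Ints8 itself rose by 0.27 (edgeR adjusted p = 0.000333). The rule by which the authors assigned reads in such overlaps is not stated in the labels. Ccne1 (ENSMUSG00000002068.16, chromosome 7, 38097984 to 38107534) had 226 and 202 reads with BML-210 and 233 and 241 untreated, the fewest of the 9 genes. Its 17.1 and 14.4 CPM with BML-210 interleaved with the 14.2 and 17.6 CPM of the untreated libraries. The estimated change was -0.0030 ± 0.12 on the log2 scale (SE; adjusted p = 0.986, edgeR), with a 95% interval of -0.24 to 0.24. The change of Ccne2 exceeded that of Ccne1 by 0.89 (95% interval 0.62 to 1.17).

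Among the D-type cyclins the differences were small. Ccnd1 (ENSMUSG00000070348.5, chromosome 7, 144929931 to 144939925) had 236 and 244 CPM with BML-210, against 205 and 214 CPM untreated. The groups did not overlap, and the rise was 0.20 ± 0.04 on the log2 scale (SE; adjusted p = 6.00e-06, edgeR), a size that 41.0% of tested genes did not exceed. Exons of LTO1, on the opposite strand, cover 23.4% of its exon bases, and LTO1 had 78 to 120 reads in a library, against 2932 to 3419 for Ccnd1. Ccnd2 (ENSMUSG00000000184.12, chromosome 6, 127125162 to 127152193) had 1292 and 1278 CPM with BML-210, against 1284 and 1302 CPM untreated. Its groups overlapped, and with 17069 to 21095 reads in a library the 95% interval of its log2 fold change ran only from -0.06 to 0.04 (edgeR adjusted p = 0.825). Ccnd3 (ENSMUSG00000034165.16, chromosome 17, 47505051 to 47599691) had 58.6 and 56.7 CPM with BML-210, against 53.0 and 55.4 CPM untreated, a change of 0.09 ± 0.06 on the log2 scale that did not pass (SE; adjusted p = 0.221, edgeR). The change of Ccnd1 exceeded that of Ccnd2 by 0.21 (95% interval 0.12 to 0.30), while the interval of its difference from Ccnd3 ran from -0.03 to 0.25.

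**Figure D2:**
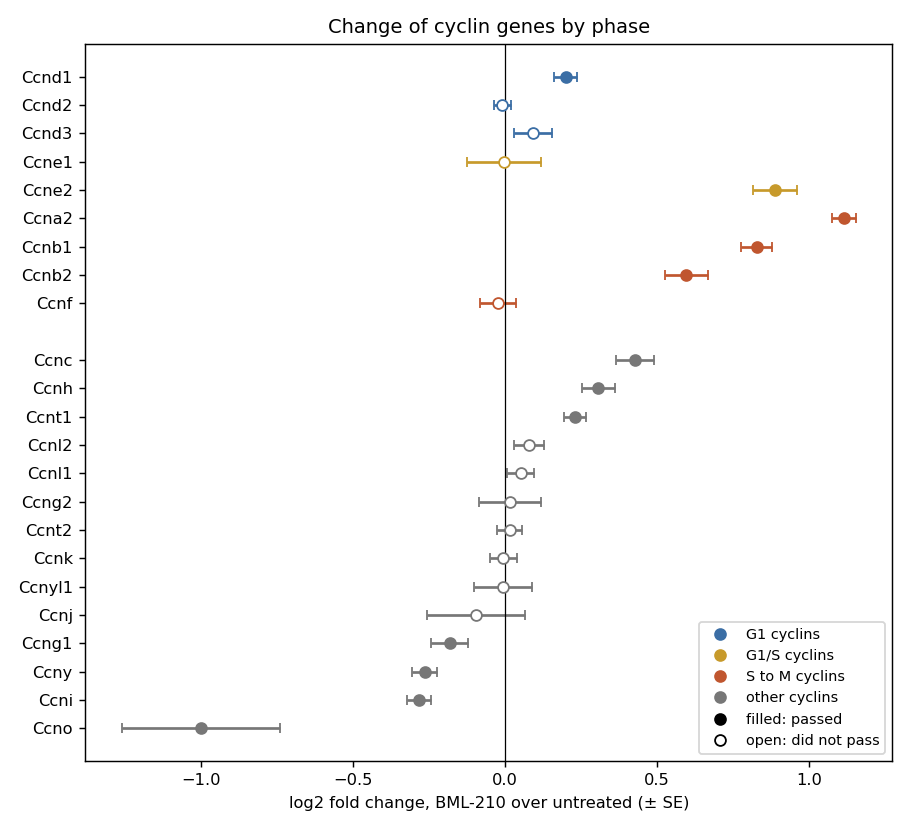
Log2 fold change, BML-210 over untreated (horizontal axis), of the 9 cell cycle cyclins and, below the gap, of 14 other tested cyclin genes. Bars are SE, filled points passed an adjusted p of 0.05 and open points did not; Ccne2, Ccna2, Ccnb1 and Ccnb2 lie between 0.60 and 1.11, to the right of all other cyclins shown.

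The order of the cyclins by abundance also shifted. To compare genes, CPM were divided by the exonic length in kb, which counts the exons of all isoforms and so understates genes with long alternative exons. Per kb, Ccnd2 was the most abundant cyclin at 136.6 ± 1.02 CPM with BML-210 and 137.4 ± 1.37 CPM untreated (SD, n = 2 each), above 98.6% of tested genes. With BML-210 the next was Ccna2 at 70.0 CPM per kb, ahead of Ccnd1 at 51.0. In untreated cells Ccnd1 was next at 44.5 CPM per kb, ahead of Ccna2 at 32.3, and in neither group did the libraries of these 2 genes overlap. The ratio of Ccna2 to Ccnd1 per kb was 1.40 and 1.34 with BML-210, against 0.765 and 0.688 untreated. Ccnb2, Ccnb1, Ccne2, Ccnf, Ccnd3 and Ccne1 followed in this order in both groups. With BML-210 Ccne2 stood at 15.7 CPM per kb, far above Ccnf at 7.90, whereas untreated they were neighbours at 8.46 and 8.04. In untreated cells Ccnd3 and Ccne1, the least abundant, were not separated by their libraries.

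Summed per kb, the 4 cyclins of S phase to mitosis reached 137.3 and 136.5 CPM with BML-210, against 78.1 and 75.5 CPM untreated. The 2 G1/S cyclins summed to 22.8 and 20.4 CPM per kb with BML-210, against 13.8 and 15.1 untreated. The 3 G1 cyclins summed to 194.2 and 194.2 CPM per kb with BML-210, against 186.1 and 190.1 untreated. The late cyclins thus made up 38.8% and 38.9% of all cyclin mRNA of the set with BML-210, against 28.1% and 26.9% untreated, and the share of Ccnd2 alone was 38.8% and 38.7% with BML-210, against 49.1% and 49.3% untreated. With 2 libraries against 2, an exact permutation test cannot give a p below 0.333, so no test was run on these sums.

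**Figure D3:**
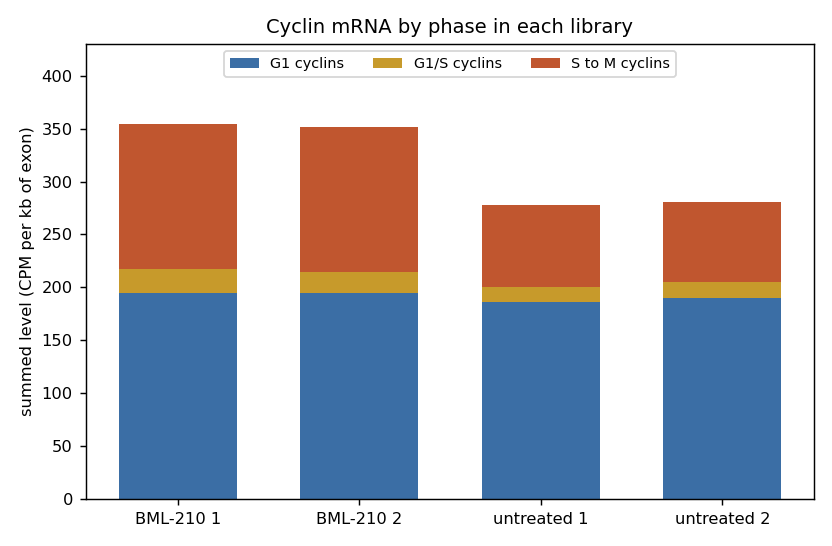
Summed level of the cyclins of each phase (vertical axis, CPM per kb of exon, stacked from 0) in the 2 BML-210 and the 2 untreated libraries. The G1 part is of nearly the same height in the 4 bars, and the S to M part is taller in both BML-210 libraries, near 137 CPM per kb.

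The start regions of Ccnb1, Ccnb2 and Ccnf are shown because these late cyclins differ in their change and because promoters of this class are known to carry CCAAT boxes, bound by the factor NF-Y, and the cell cycle homology region (CHR), bound by the DREAM and MuvB complexes. RefSeq promoter windows (GRCm38.p6, 250 bases before to 50 after the start) matched 5 of the 9 genes: Ccnb1, Ccnb2, Ccnf, Ccne1 and Ccnd3, the last with 2 starts. Each sequence runs 5′ to 3′ on the minus strand, the strand of the gene, from 170 bases before the RefSeq start to the base before it. Capitals mark CCAAT and TTTGAA, the only spelling of the CHR core that was searched. In the counts table's annotation, the first exon of Ccnb1 and Ccnf begins within the stretch shown.
Ccnb1, chr13:100786487-100786656: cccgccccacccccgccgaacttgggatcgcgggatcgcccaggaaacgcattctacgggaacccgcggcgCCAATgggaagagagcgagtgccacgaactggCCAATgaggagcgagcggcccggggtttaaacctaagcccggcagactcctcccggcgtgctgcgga
Ccnb2, chr9:70421555-70421724: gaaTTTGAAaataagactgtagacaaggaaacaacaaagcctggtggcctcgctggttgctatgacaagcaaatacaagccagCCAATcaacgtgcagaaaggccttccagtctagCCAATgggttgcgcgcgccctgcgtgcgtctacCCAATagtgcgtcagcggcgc
Ccnf, chr17:24251410-24251579: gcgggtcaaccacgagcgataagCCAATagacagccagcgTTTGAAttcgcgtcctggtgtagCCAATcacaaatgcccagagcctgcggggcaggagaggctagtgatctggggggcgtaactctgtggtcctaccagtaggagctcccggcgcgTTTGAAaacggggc

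All 3 sequences hold CCAAT in the direction of the gene. Ccnb2 has 3 matches, which begin 87, 54 and 21 bases before the start, Ccnb1 has 2, at 99 and 67 bases, and Ccnf has 2, at 147 and 107 bases. TTTGAA begins 130 and 14 bases before the start of Ccnf and 167 bases before that of Ccnb2, which has another match at base 5 after the start, beyond the stretch printed. TTTGAA was not found in the window of Ccnb1. Other spellings of the CHR were not searched, so this does not show that Ccnb1 lacks a CHR. Counting both strands, 37.4% of 32851 RefSeq promoter windows of 300 bases hold CCAAT and 17.9% hold TTTGAA, so such matches are common. Of the other windows, that of Ccne1 holds neither string and only the second start of Ccnd3 holds CCAAT. The E2F-type string TTTNNCGC, in 5.2% of all windows, was in none of the 6. A match is a description of the sequence and does not show a bound site.

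The remaining cyclin genes, most of which act in transcription or have no set place in the cycle, passed the test about as often as tested genes at large. Of 18 listed, 14 were tested, and 3 were higher, 4 lower and 7 did not pass, with a median log2 fold change of 0.00. That is 50% called, near the 46.4% over all tested genes. Higher were Ccnc, a partner of the Mediator kinase CDK8 (0.43, edgeR adjusted p = 3.99e-08), Ccnt1, a partner of CDK9 in transcription elongation (0.23, edgeR adjusted p = 2.66e-07), and Ccnh, the cyclin of the CDK-activating kinase (0.31, edgeR adjusted p = 4.14e-06). Lower were Ccni (-0.28, edgeR adjusted p = 1.13e-08), the membrane-bound Ccny (-0.26, edgeR adjusted p = 3.88e-07), the p53 target Ccng1 (-0.18, edgeR adjusted p = 0.0112) and Ccno, a gene of multiciliated cells with 2.09 ± 0.0686 CPM with BML-210 and 4.22 ± 0.628 CPM untreated (SD, n = 2 each; edgeR adjusted p = 0.00109) from 27 to 64 reads in a library. The germ-line cyclin genes Ccna1 and Ccnb3 had 0 or 1 read in each library, and a second row of the table with the symbol Ccnb3 had 0 in all 4. Ccnh, Ccng1 and Ccno lie outside the rule for named genes and were named after their values were seen.

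Among the kinases that the cyclins activate, the small CKS subunits and Mnat1, 7 of 8 rose and 1 fell. Their median log2 fold change was 0.41, and 22.9% of all tested genes rose and 23.5% fell. Cdk7 (0.20, edgeR adjusted p = 0.0472) and Cdk2 (0.22, edgeR adjusted p = 0.0227) passed by the least, and were named after their values were seen. Cdk6 had 465 ± 4.44 CPM with BML-210 and 333 ± 4.06 CPM untreated (SD, n = 2 each; log2 fold change 0.48, edgeR adjusted p = 1.55e-20). Its relative Cdk4 rose by 0.50 (edgeR adjusted p = 4.58e-16), while 0.20, for Ccnd1, was the largest change of their D-type cyclin partners. Cdk1, the mitotic kinase, rose by 0.46 (edgeR adjusted p = 3.12e-10) and its subunit gene Cks1b by 0.66 (edgeR adjusted p = 1.61e-14). The member that fell was Mnat1, the assembly factor of the CDK-activating kinase (-0.23, edgeR adjusted p = 0.00561).

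The listed kinases and phosphatases that switch CDKs, with mitotic kinases and Bora, rose in 9 of 10 cases, against 22.9% of all tested genes. Their median log2 fold change was 0.51. They include both activators and inhibitors: Bora, which activates PLK1 (0.73, edgeR adjusted p = 1.54e-12), Pkmyt1, an inhibitory kinase of CDK1 (0.71, edgeR adjusted p = 4.51e-11), the mitotic kinase gene Aurka (0.52, edgeR adjusted p = 6.51e-11) and Mastl, which restrains the phosphatase PP2A (0.54, edgeR adjusted p = 1.42e-09). Cdc25a, the CDK phosphatase of G1/S, was the member that did not pass (0.13, edgeR adjusted p = 0.17). Cdc25a lies outside the rule for named genes and was named after its value was seen. Of 7 genes for inhibitor proteins of CDKs 5 were tested, and 1 rose, 1 fell and 3 did not pass, 40% called and near the 46.4% over all tested genes. Cdkn1a, which encodes p21, had 206 ± 6.10 CPM with BML-210 and 257 ± 1.30 CPM untreated (SD, n = 2 each; log2 fold change -0.32, edgeR adjusted p = 4.97e-11). Cdkn1b, which encodes p27, rose by 0.22 (edgeR adjusted p = 1.59e-05). Cdkn1c (0.41, edgeR adjusted p = 0.177) and Cdkn2d (-0.16, edgeR adjusted p = 0.442) did not pass, and Cdkn2a and Cdkn2b had at most 1 read in a library.

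Regulators of cyclin transcription were higher in 14 and lower in 2 of 22 tested cases of the E2F, RB and DREAM list (median 0.27), so 72.7% passed, against 46.4% of all tested genes. The E2F partner genes Tfdp2 (0.85, edgeR adjusted p = 6.78e-19) and Tfdp1 (0.64, edgeR adjusted p = 2.53e-18), the mitotic transcription factor gene Foxm1 (0.76, edgeR adjusted p = 1.59e-18) and Rbl1, which encodes the pocket protein p107 (0.61, edgeR adjusted p = 5.07e-14), rose. The pocket protein genes Rbl2 (-0.27, edgeR adjusted p = 5.74e-05) and Rb1 (-0.13, edgeR adjusted p = 0.0281) fell. Among the E2F genes themselves, E2f3, E2f4, E2f7 and E2f8 rose, while E2f1, E2f2, E2f5 and E2f6 did not pass. The E2F genes were named after their values were seen. Of 10 factors known to act upstream of D-type cyclins, 5 rose, 3 fell and 2 did not pass (median 0.31), where 22.9% of all tested genes rose and 23.5% fell. Ets2 (0.67, edgeR adjusted p = 1.92e-25), the NF-kappaB subunit gene Nfkb1 (0.86, edgeR adjusted p = 5.07e-23), the AP-1 gene Fosl1 (0.47, edgeR adjusted p = 2.46e-19) and Myc (0.36, edgeR adjusted p = 4.33e-17) rose. Ctnnb1, which encodes beta-catenin (-0.31, edgeR adjusted p = 1.74e-13), and Jun (-0.31, edgeR adjusted p = 3.49e-08) fell. Exons of another gene cover 57.2% of the exon bases of Fosl1. Such cover was 21.0% for Rbl2, 15.1% for Ctnnb1 and 14.9% for Rb1. Among genes named from the other lists, it was 30.7% for Cdkn1c, 22.8% for Ube2c and 19.7% for Cdk4.

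Of 26 tested genes that mark cyclins with ubiquitin for destruction or regulate that step, 12 rose, 4 fell and 10 did not pass. Their median was 0.14, and 61.5% passed, against 46.4% of all tested genes. Cul1, the scaffold of the SCF ligases, had the smallest adjusted p of these (0.81, edgeR adjusted p = 2.09e-22). Ube2c, the E2 enzyme of the anaphase-promoting complex (0.58, edgeR adjusted p = 6.30e-16), its subunit gene Cdc27 (0.38, edgeR adjusted p = 1.83e-14) and its activator gene Cdc20 (0.66, edgeR adjusted p = 9.90e-12) rose. Fbxo31 (-0.54, edgeR adjusted p = 1.72e-08) and Ambra1 (-0.18, edgeR adjusted p = 0.00673), both of cyclin D1 turnover, fell; the rule names them because they go against the median of the list. Fbxo4, another F-box gene of cyclin D1 turnover, did not pass (0.22, edgeR adjusted p = 0.241), nor did Fbxw7, whose product recognises cyclin E (0.03, edgeR adjusted p = 0.767). The genes that rose also include Fbxo5, whose product inhibits the anaphase-promoting complex (0.74, edgeR adjusted p = 2.01e-08). Fbxo4, Fbxw7 and Fbxo5 were named after their values were seen.

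**Figure D4:**
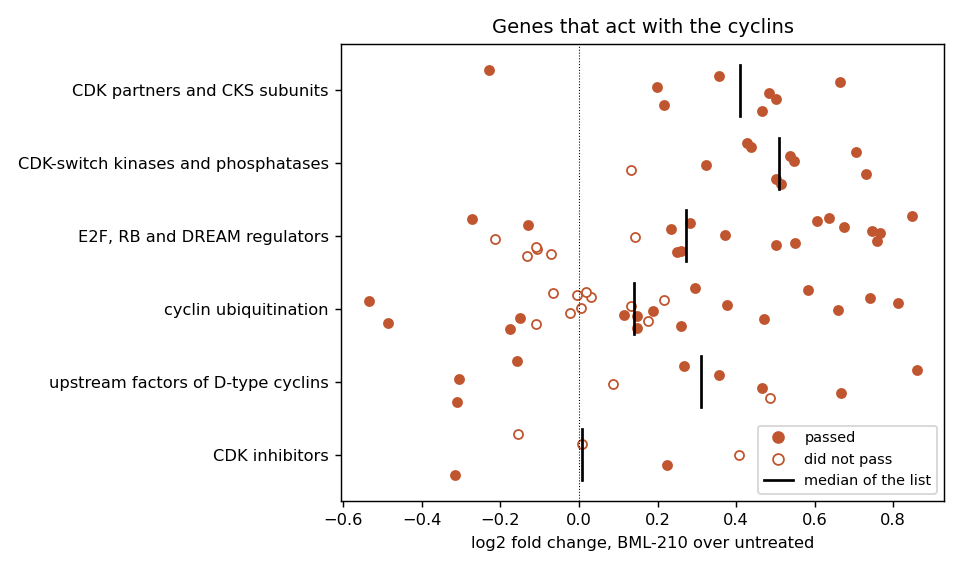
Log2 fold change, BML-210 over untreated (horizontal axis), of each tested gene in 6 lists of genes that act with the cyclins. Filled points passed an adjusted p of 0.05, open points did not, and the vertical bar is the median of the list. The medians lie between 0.01 for the CDK inhibitors and 0.51 for the CDK-switch kinases and phosphatases.

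Likeness to a cyclin was measured as the root mean square difference between log2 CPM profiles, each centred on its mean over the 4 libraries, among 8735 other genes that averaged 10 CPM or more. With 4 libraries in 2 groups this is mostly likeness in the size of the change, and it carries no test. Nearest to Ccna2 were the linker histone gene Hist1h1b (0.0117), Rcbtb2 (0.0181) and the carbonic anhydrase gene Car6 (0.0235). Nearest to Ccnb1 were Etv6 (0.0105), Cul1 (0.0112) and the linker histone gene Hist1h1e (0.0114). Ccne2 was most like the kinetochore gene Cenpq (0.0163), Nfib (0.0298) and Drd1 (0.0328), and Ccnd1 was most like Traf2 (0.00502), Fhl3 (0.00646) and Mark2 (0.00765).

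Markers of the labelled cell type and of other cells were checked. Of 6 markers of mammary carcinoma cells, Vim was abundant (1662 CPM with BML-210, 1707 CPM untreated) and Krt8 was present (30.7 CPM with BML-210, 46.4 CPM untreated). The epithelial markers Epcam and Krt18 had at most 3 reads in a library, Krt19 at most 9 and Cdh1 at most 16. Of the 3 tested, Krt8 fell (-0.59, edgeR adjusted p = 3.50e-09), and Vim and Cdh1 did not pass. That is 33.3% called, against 46.4% over all tested genes. The counting rule for reads that match several places is not stated, so the low count of Krt18, whose partner Krt8 had 374 to 716 reads, is uncertain as a check of the cells. Of 12 macrophage and leukocyte markers, 5 were tested and 2, Cd68 and Adgre1, fell. That is 40% called, against 46.4% over all tested genes. All 12 markers together summed to 35.5 to 37.5 CPM with BML-210 and 169.0 to 172.4 CPM untreated. Without Cd68 this sum was 5.37 to 5.49 CPM with BML-210 and 7.36 to 9.68 CPM untreated. Ptprc had 6 to 16 reads in a library and C1qc had 0 in all 4. The 5 endothelial markers summed to 6.26 to 8.55 CPM in a library, and Cldn5 and Tek had at most 1 read. The part of other cells in the cyclin differences was not tested.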

How the data were processed

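The authors deposited 1 table of raw read counts per gene with exon coordinates and exonic length; per the submitters' processing notes, reads went through STAR 2.5 and featureCounts (Subread 1.5.1) on mm10, with bcl2fastq and edgeR 3.20.8 also named. Whether counting used strand, and how it treated multi-mapping or overlapping reads, is not stated there. The low counts of the NF-Y subunit gene Nfya (0 to 2 reads) and of Skp2 (4 to 13 reads) are therefore uncertain, and neither was tested. All 4 columns of counts matched a sample by the library name in its labels.

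The analysis used edgeR 4.0.16 in R 4.3.3: filterByExpr with default settings, TMM scaling, then glmQLFit (robust) and glmQLFTest on the group alone, with Benjamini-Hochberg adjustment over 14455 genes and calls below 0.05. This leaves 2 residual degrees of freedom, with the spread shared across genes. CPM use the TMM-scaled library size. SEs were taken as the log2 change divided by the root of the F statistic, an approximation, and 95% intervals use them. A count of 3 equals 0.183 to 0.227 CPM; such floors cover counting error only. The steps were also run on simulated counts with far fewer changed genes than were called here and the same spread for every gene. That run does not measure the error rate in these data.

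Between replicates, chi-square over its degrees of freedom was 1.76 for BML-210 and 2.70 for untreated, above sampling noise, and each library counts as 1 sample. The common biological coefficient of variation was 2.49%, and the small adjusted p-values rest on this narrow spread between libraries. Samples with the same replicate number did not deviate together (correlation 0.03), so the numbers were not taken as pairs. The members and lists were chosen with earlier results of these data known. The rule for named genes takes all 9 cyclins, and from each list the 4 smallest adjusted p and up to 2 called genes against the median. Gene models were compared with GENCODE release M21. The symbols Nfya and Ccnb3 each have a second row, and the first was used. Alternatives were other scaling factors (RLE, upper quartile, none), other filters, a replicate block, each library left out, genes over 1% of a library left out, DESeq2 1.42.0 and limma-voom (limma 3.58.1).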

Additional observations from a re-analysis of the deposited data

How the results depend on the processing

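Each of the 9 cyclins kept its side of the threshold under all 13 alternatives, and the 5 that passed kept their direction. Over these, the log2 fold change ran from 1.07 to 1.16 for Ccna2, 0.80 to 0.85 for Ccnb1, 0.57 to 0.61 for Ccnb2, 0.82 to 0.95 for Ccne2 and 0.17 to 0.23 for Ccnd1, whose edgeR adjusted p was highest, 0.00192, without BML-210 replicate 2. Those that did not pass ran from -0.04 to 0.01 for Ccnd2, 0.06 to 0.12 for Ccnd3, -0.16 to 0.15 for Ccne1 and -0.09 to 0.04 for Ccnf; the sign of Ccne1 turned with the library left out. The number of genes called was 6714, from 4631 with DESeq2 to 6847 with the replicate block (3385 higher, 3462 lower), and the block changed no call of a cyclin. With 1 library left out, 5618 to 5869 genes were called, a fit that takes the lone library to vary like the others. Depth limits Ccne1, where a difference under 0.24 in log2 could not be told from 0, and the levels of weakly counted genes such as Ccno.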
